A study of Drosophila melanogaster with 24 samples.

Results

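The genes described here are 10 Drosophila melanogaster transcription factors and cofactors that set antennal identity or position along the proximodistal axis of an appendage: Dll, hth, exd, dac, ss, dan, danr, ct, salm and tsh. They were chosen by name, with no cutoff on a measured value, though earlier results of these data were known at the choice. They come from 13409 genes with deposited counts, and all 10 passed the filter on low counts, as did 10993 genes in all. Messenger RNA had been sequenced at 4 stages: the imaginal disc of wandering larvae, pupal antennae taken 8 h or 40 h after pupation, and adult antennae. At each stage there were 3 genotypes, all in a w[1118] stock: +/+ (wild type), rn[tot]/TM6 (heterozygote, in which TM6 is a balancer chromosome) and rn[tot]/rn[tot] (mutant). The product of rotund (rn) is a transcription factor with zinc fingers, expressed in a ring within leg and antennal discs. Each of the 12 groups had 2 libraries, 24 in all, and the labels do not say whether the members of a pair came from separate animals, so p-values measure the spread between these libraries, which may be technical. The sources used here do not give sex, age beyond the stage, or how many antennae were pooled. The heterozygote carries TM6 as well as rn[tot], and effects of the balancer and of the rn allele cannot be told apart.

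An insect appendage is divided from body wall to tip by transcription factors that occupy nested domains. Homothorax (Hth) and Extradenticle (Exd) are homeodomain partners of the proximal domain, Hth carries Exd into the nucleus, and Teashirt (Tsh) is a zinc-finger factor of proximal and trunk cells. Dachshund (Dac) marks the medial domain, which is long in the leg and small in the antenna, and Distal-less (Dll) is the homeodomain factor of the distal domain. The antenna differs from the leg in that Dll and Hth overlap widely, and together they act through Spineless (Ss), a bHLH-PAS factor, and through the nuclear proteins Distal antenna (Dan) and Distal antenna-related (Danr). Cut (Ct) is a homeodomain factor of external sense organs and the proximal antenna, and Spalt major (Salm) is a zinc-finger factor of the segment that holds Johnston's organ.

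Gene counts ran from 8060181 to 15123603 per library. The rn transcript was present in the mutant: at 8 h it stood at 127 and 79.3 CPM (counts per 1000000, with TMM library sizes) in wild type, 73.9 and 82.2 CPM in the heterozygote and 48.8 and 44.6 CPM in the mutant. In larvae rn stood at 42.7 and 43.7 CPM in wild type against 74.7 and 68.7 CPM in the mutant, so its level does not check the genotype labels. A pair of libraries stood apart from their partners. The median absolute log2 difference between the libraries of a group was 0.691 in 8 h wild type and 0.494 in the larval heterozygote, against 0.125 to 0.26 in the other groups. In both, library 1 had the larger share of mitochondrial counts, 3.82% against 1.47% in 8 h wild type and 3.05% against 1.51% in the larval heterozygote. The summed level of 8 homeotic genes ranged from 91.5 to 119 CPM over larval libraries and reached at most 14.8 CPM later. Dfd, lab and Scr, homeotic genes of the head, made up most of it, and Antp, which gives legs their identity, averaged at most 0.36 CPM in any group. The eye genes ey, toy, so, eya, Optix and gl summed to 159 to 299 CPM in larvae, 146 to 247 at 8 h, 11.4 to 76.2 at 40 h and 3.2 to 5.19 in adults. toy made up most of the sum in larvae and at 8 h, with group means of 110 to 182 and 102 to 146 CPM. The sum of 4 photoreceptor genes was low, 2.14 to 4.54 CPM in larvae and 1.63 to 11.8 CPM at 8 h. The larval tissue, labelled only as imaginal disc, thus held RNA of genes that mark other head parts, and so did the 8 h tissue for the eye genes. All 6 eye genes fell from 8 h to 40 h, with a median log2 change of -3.04. A change of a selector gene from larva to 8 h, or from 8 h to 40 h, cannot be told apart from a change of dissected tissue. In these bulk samples, fewer cells of a type and less RNA per cell cannot be told apart either.

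Divided by the length of the counted transcript, exd and hth had the highest levels in the larval disc, with medians over 6 libraries of 174 and 160 CPM per kb. Dll followed at 107, and danr, tsh and ss lay at 35.5, 20.5 and 17.7 CPM per kb. The levels of ct and dan were both 12.9 CPM per kb, salm stood at 9.04, and dac was lowest at 2.09. At every stage the order over genes may depend on how reads shared between transcripts were counted, which is not given. The counted transcript held 17.54% of the summed counts of dac, 25.96% of those of exd and 100% of those of tsh and danr. The ranges of neighbours in this order overlapped for exd and hth, danr and tsh, tsh and ss, ct and dan, and dan and salm, so these pairs are not ordered beyond the spread between libraries. At 8 h exd (150), Dll (148) and hth (113 CPM per kb) led with overlapping ranges, and danr stood at 60.8, ss at 32.7, dan at 27.3, salm at 14.1, ct at 8.34, tsh at 3.33 and dac at 1.46. At 40 h the same 3 genes led at 134 for exd, 124 for hth and 122 CPM per kb for Dll, again overlapping, and ct had moved up to 25.2 CPM per kb, above every library of salm (median 11.2) and dan (10.4). ss and danr lay at 33.1 and 31.4 with overlapping ranges, dac at 3.26 and tsh at 0.565 CPM per kb. In the adult antenna the order was different. Dll led at 133 CPM per kb with a range of 123 to 156, above every library of the other 9 genes. ss, exd and hth followed at 89.2, 81.7 and 78.5 CPM per kb with overlapping ranges. salm, ct and dac lay at 11.3, 7.64 and 2.09 CPM per kb, each apart from its neighbours, and danr, tsh and dan were lowest at 0.774, 0.331 and 0.0651 CPM per kb.

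**Figure D1:**
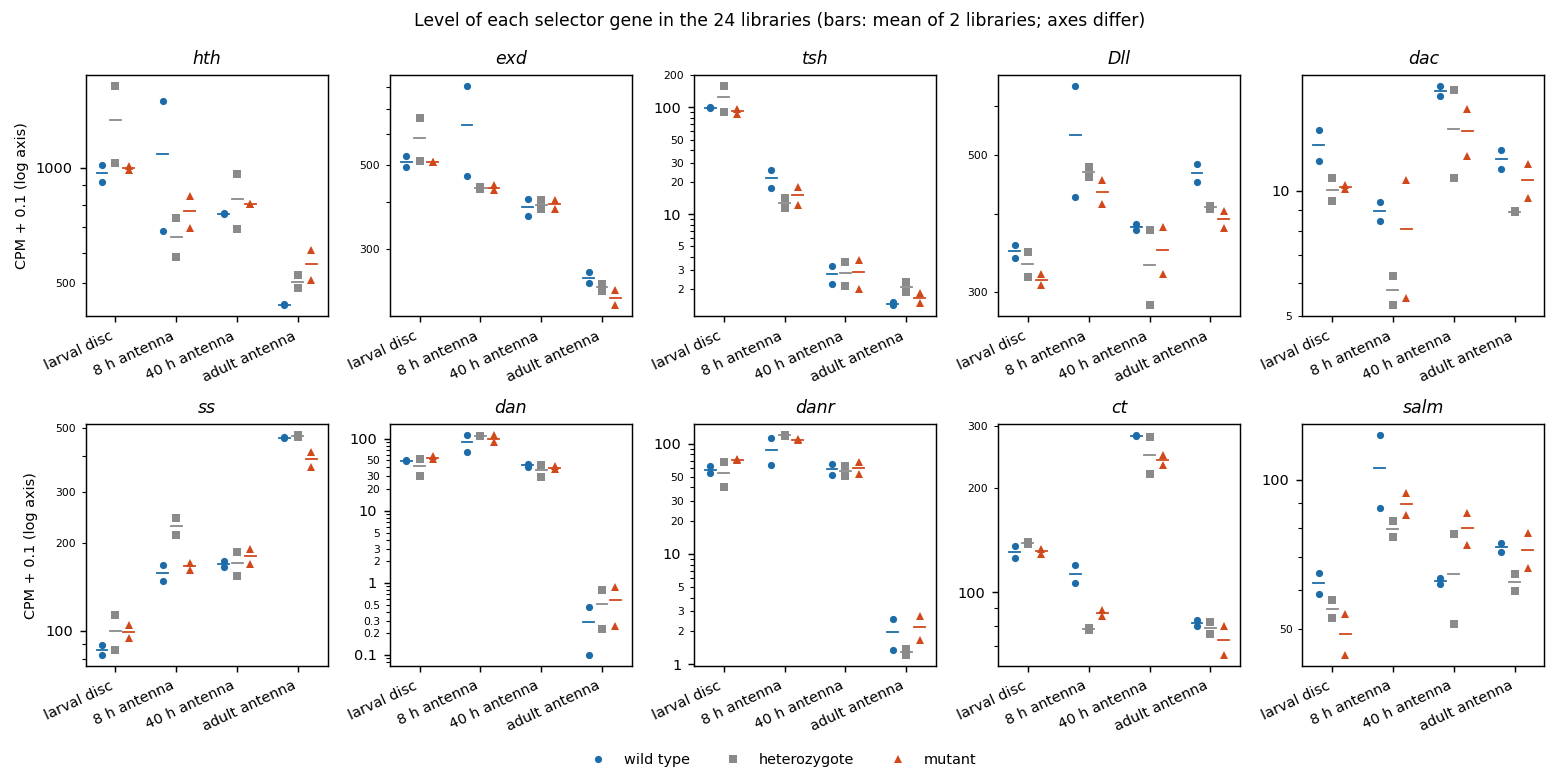
Level of the 10 genes in each of the 24 libraries as CPM + 0.1 on a log axis whose range differs between panels. Points are libraries, coloured by genotype, and short bars are the mean of 2 libraries. dan lies between 29.8 and 112 CPM up to 40 h and at or below 0.787 CPM in every adult library, and tsh falls from 87.5 CPM or more in larvae to 2.22 CPM or less in the adult.

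All 10 genes changed over at least 1 step between successive stages. With the 3 genotypes averaged, 25 of the 30 tests (10 genes over 3 steps) passed an adjusted p of 0.05 in edgeR's quasi-likelihood test, beside 63.4% of the tests over all genes, so the share of the selector genes is read against a background in which most genes changed. In wild type alone 17 of 30 passed, beside 49.6% of all. A fit without both libraries that stood apart leaves 1 library in each of their groups, so its counts are not set beside these shares. From larva to 8 h, 5 of the 10 rose (23.8% of all genes rose) and 3 fell (24.7% fell), and the median log2 change was 0.21 over the 10 genes and -0.08 over all tested genes. From 8 h to 40 h, 2 rose (34.8% of all) and 6 fell (34.9%), with medians of -0.37 and -0.02. From 40 h to adult, 2 rose (37.8% of all) and 7 fell (34.5%), with medians of -0.70 and 0.04. Markers of cells of the mature antenna moved with the last step. The summed level of 5 olfactory support cell genes went from 426 to 599 CPM at 40 h to 35100 to 49700 CPM in adults, that of 4 olfactory neuron genes from 55.1 to 125 to 1910 to 3260 CPM, and that of 5 neuron genes from 683 to 885 to 2540 to 2910 CPM. In adults the olfactory neuron sum was 3160 to 3260 CPM in wild type, 2630 to 2820 CPM in the heterozygote and 1910 to 2330 CPM in the mutant. The support cell sum was lowest in wild type, 35100 to 38000 CPM, and highest in the heterozygote, 45100 to 49700 CPM. In the mutant it was 39300 to 43200 CPM. Obp28a alone among its genes was lower in the mutant than in wild type (2100 against 2700 CPM). The part of these cells in the changes of the selector genes, over stages or between genotypes, was not tested. The folds and log2 changes below are averages over the genotypes, ± SE, with p-values from edgeR adjusted over all 10993 genes.

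The proximal genes had their highest medians in the larva and their lowest in the adult, though the median of hth was higher at 40 h than at 8 h. hth had a lowest, median and highest level of 920, 1010 and 1640 CPM in the 6 larval libraries, 585, 717 and 1490 at 8 h, 694, 783 and 961 at 40 h and 438, 498 and 611 in adults. The top values in larva and at 8 h belonged to the libraries that stood apart, and every adult library lay below every library at 40 h. The fall from 40 h to adult was 1.60-fold (log2 -0.68 ± 0.17, adjusted p = 0.00212). From larva to 8 h the log2 change of hth was -0.41 ± 0.17 (adjusted p = 0.0614), and it was -0.50 (adjusted p = 0.000721) without both libraries that stood apart. exd, whose protein needs Hth to enter the nucleus, had 492, 510 and 661 CPM in larvae, 428, 441 and 806 at 8 h, 367, 393 and 407 at 40 h and 214, 239 and 261 in adults. Its ranges did not overlap between 8 h and 40 h or between 40 h and adult. It fell 1.26-fold from 8 h to 40 h (log2 -0.34 ± 0.12, adjusted p = 0.017) and 1.64-fold from 40 h to adult (log2 -0.71 ± 0.12, adjusted p = 3.98e-05). Other scalings weakened the first of these: with DESeq2's size factors in edgeR its log2 change was -0.23 (adjusted p = 0.098). From larva to 8 h exd gave -0.11 ± 0.12 (adjusted p = 0.476), and -0.19 (adjusted p = 0.0118) without both libraries. The distance between hth and exd over the 12 group means was a root-mean-square difference of 0.191 in centred log2 CPM. Of the 45 pairs among the 10 genes only Dll and salm were closer, at 0.175. Genes outside the 10 were closer still, TBC1d7 at 0.119 from hth and Etl1 at 0.0813 from exd. The distance is also small for genes that change little.

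tsh fell at every step. Its lowest, median and highest levels were 87.5, 97 and 160 CPM in larvae, 11.4, 15.8 and 25.7 at 8 h, 1.92, 2.67 and 3.67 at 40 h and 1.31, 1.56 and 2.22 in adults. The first 3 stages did not overlap, and 40 h and adult did. The falls were 6.52-fold from larva to 8 h (log2 -2.70 ± 0.19, adjusted p = 2.61e-09), 5.84-fold from 8 h to 40 h (log2 -2.55 ± 0.21, adjusted p = 8.92e-09) and 1.69-fold from 40 h to adult (log2 -0.76 ± 0.24, adjusted p = 0.00877). Genes of other head territories fell with tsh between larva and 8 h. tio, the close relative of tsh, went from 37 to 2.45 CPM (log2 -3.91 ± 0.22, adjusted p = 1.64e-10), Dfd from 74.8 to 1.61 CPM (log2 -5.56 ± 0.29, adjusted p = 8.12e-11), lab from 10.6 to 0.703 CPM and Scr from 19.4 to 3.74 CPM. The part of these head territories in the larval level of tsh was not tested. At the last step, over which tsh fell, tio rose from 3.66 to 9.69 CPM (log2 1.40 ± 0.20, adjusted p = 9.52e-06).

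**Figure D2:**
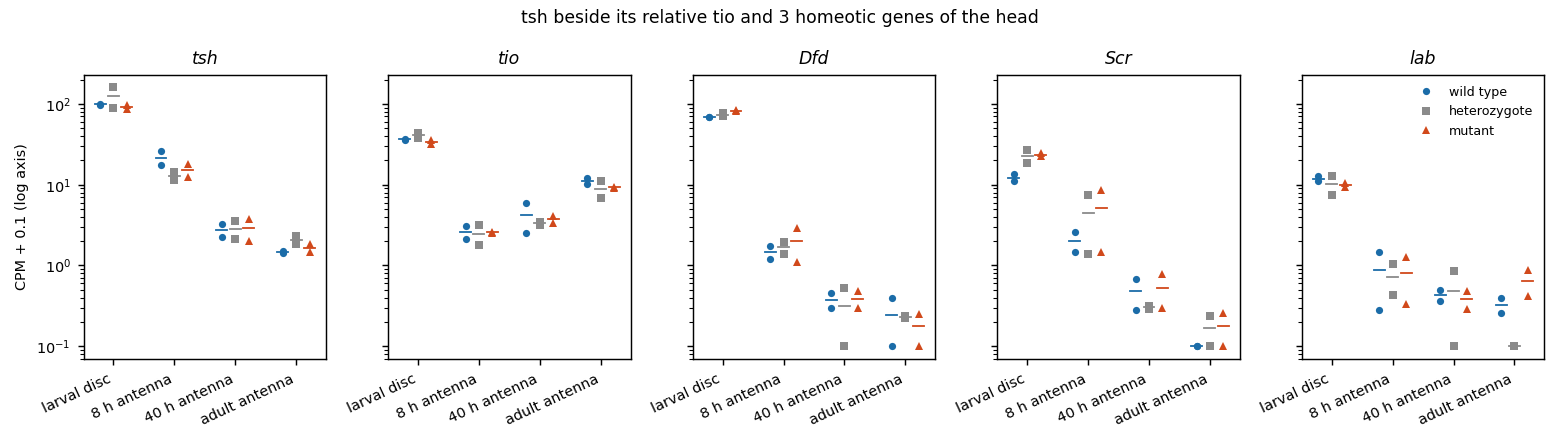
Level of tsh, tio, Dfd, Scr and lab in each library as CPM + 0.1 on a shared log axis, by stage and genotype, with bars at the mean of 2 libraries. All 5 drop between the larval disc and the 8 h antenna in every genotype, tsh by 6.52-fold and Dfd by 47.2-fold, and only tsh keeps over 10 CPM in every 8 h library.

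Dll, the distal selector, varied little. Its lowest, median and highest levels were 307, 330 and 357 CPM in larvae, 416, 457 and 647 at 8 h, 285, 377 and 386 at 40 h and 380, 411 and 483 in adults. Every 8 h library lay above every library of the larva and of 40 h. The rise from larva to 8 h was 1.44-fold (log2 0.53 ± 0.11, adjusted p = 0.000643) and the fall to 40 h was 1.35-fold (log2 -0.43 ± 0.11, adjusted p = 0.00189). The rise to the adult, 1.19-fold (log2 0.26 ± 0.11, adjusted p = 0.0444), passed in only 6 of the 24 fits that each left out 1 library. dac, the medial gene, was low in all stages by its counted transcript, 1 of 6. That transcript held 17.54% of the gene's summed counts, so the level may be understated if reads were split between transcripts. dac had 9.32 to 13.9 CPM in larvae, 5.2 to 10.5 at 8 h, 10.6 to 17.8 at 40 h and 8.77 to 12.4 in adults. It fell 1.48-fold from larva to 8 h (log2 -0.57 ± 0.17, adjusted p = 0.0102), rose 2.04-fold to 40 h (log2 1.03 ± 0.17, adjusted p = 3.76e-05) and fell 1.45-fold to the adult (log2 -0.54 ± 0.16, adjusted p = 0.00737). Only its rise left no overlap between the 2 stages. Both falls of dac missed the threshold with the replicate number as a block (adjusted p = 0.0872 and 0.239).

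The antennal identity genes went separate ways after 8 h. ss had 82.3, 91.6 and 113 CPM in larvae, 148, 170 and 245 at 8 h, 154, 172 and 191 at 40 h and 367, 462 and 471 in adults. It was lowest in the larva and highest in the adult, and only 8 h and 40 h overlapped. It rose 1.92-fold from larva to 8 h (log2 0.94 ± 0.09, adjusted p = 2.01e-07), gave -0.07 ± 0.09 on the log2 scale from 8 h to 40 h (adjusted p = 0.522) and rose 2.53-fold to the adult (log2 1.34 ± 0.09, adjusted p = 8.57e-10). tgo, whose protein is the dimerization partner of Ss, averaged 81.7 to 96.3 CPM in the larval groups, 128 to 135 CPM at 40 h and 48.7 to 51.4 CPM in the adult. It fell 2.59-fold over the last step (log2 -1.37 ± 0.09, adjusted p = 3.28e-10), over which ss rose.

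dan and danr, which lie 44.5 kb apart on chromosome arm 3R with 1 annotated gene between them, rose and then fell close to the limit of detection. dan had 30.7, 51 and 57.4 CPM in larvae, 66.4, 108 and 112 at 8 h, 29.8, 41.4 and 44.9 at 40 h and 0, 0.258 and 0.787 in adults. The lowest larval and 8 h values of dan were those of the libraries that stood apart. It rose 2.05-fold from larva to 8 h (log2 1.04 ± 0.22, adjusted p = 0.00094), fell 2.49-fold to 40 h (log2 -1.32 ± 0.22, adjusted p = 5.75e-05) and fell 117-fold to the adult (log2 -6.88 ± 0.35, adjusted p = 1.34e-11). The last fold rests on 0 to 10 counts per adult library, so its size is loosely fixed, and its 95% confidence interval ran from -7.61 to -6.14 on the log2 scale. danr had 40, 65 and 72.1 CPM in larvae, 63.4, 111 and 119 at 8 h, 50.9, 57.6 and 67.9 at 40 h and 1.11, 1.42 and 2.61 in adults. Its changes were 1.72-fold up (log2 0.78 ± 0.17, adjusted p = 0.000952), 1.79-fold down (log2 -0.84 ± 0.17, adjusted p = 0.000303) and 34.8-fold down (log2 -5.12 ± 0.22, adjusted p = 1.43e-12). These 2 genes, known to act downstream of Dll, Hth and Ss in the early antenna, were low in an adult tissue where Dll, hth and ss were all at or above 367 CPM. dan overlaps lobo, a gene on the other strand that averaged 4.99 to 12.8 CPM at 8 h, and the sources used here do not say how counting treated strand.

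ct and salm changed at every step by smaller folds than dan and danr did from 40 h to adult. ct had 125, 135 and 139 CPM in larvae, 77.8, 87.1 and 120 at 8 h, 219, 263 and 283 at 40 h and 65.9, 79.8 and 83.1 in adults. Its peak at 40 h lay above every library of the other stages. It fell 1.45-fold (log2 -0.54 ± 0.08, adjusted p = 3e-05), rose 2.80-fold (log2 1.48 ± 0.08, adjusted p = 5.75e-11) and fell 3.30-fold (log2 -1.72 ± 0.08, adjusted p = 7.3e-12). salm had 44.3, 55.3 and 64.8 CPM in larvae, 76.6, 86.4 and 123 at 8 h, 51.1, 68.5 and 85.8 at 40 h and 59.6, 69 and 78.2 in adults. Its only stage apart from the one before was 8 h, 1.65-fold above the larva (log2 0.73 ± 0.11, adjusted p = 3.95e-05). It then fell 1.33-fold (log2 -0.41 ± 0.11, adjusted p = 0.00355), and from 40 h to adult it gave 0.01 ± 0.11 on the log2 scale (adjusted p = 0.95, 95% confidence interval -0.22 to 0.25). salr, the neighbouring and closely related gene, averaged 59.4 to 72.3 CPM in the 40 h groups and 17.6 to 20.2 CPM in the adult groups, a fall of 3.45-fold (log2 -1.79 ± 0.12, adjusted p = 5.04e-10).

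**Figure D3:**
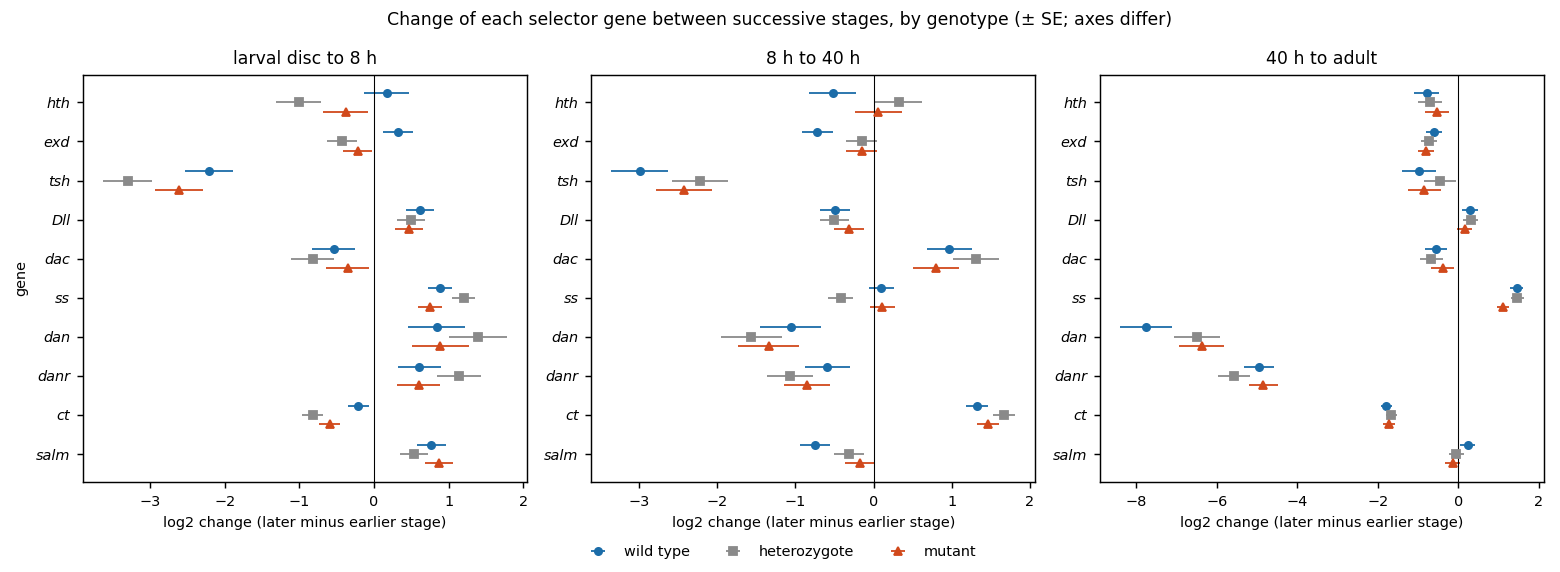
Log2 change of each gene from 1 stage to the next, ± SE, in wild type, heterozygote and mutant separately, on axes that differ between panels. dan and danr at the last step, and tsh at the first and second, lie farthest from 0 in all 3 genotypes. Between larva and 8 h the wild type of hth and exd lies to the right of the other genotypes, where the wild type group holds the 8 h library that stood apart.

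The central comparison of the study was the rn mutant against its controls. No selector gene passed in the mutant against wild type (0 of 40 tests, 10 genes at 4 stages, beside 2.32% of all tests), and none passed against the heterozygote (0 of 40, beside 0.157%). At an unadjusted p under 0.05 the counts were 2 of 40 against wild type (13.4% of the tests over all genes), both at 8 h (exd and ct; 25.1% of all genes at that stage), and 1 of 40 against the heterozygote (4.67% of all tests), ss at 8 h. DESeq2 called 1 of 40 against wild type, ct at 8 h (log2 -0.38, adjusted p = 0.0413), and 0 of 40 against the heterozygote. The share of all genes that DESeq2 called is not given here, so its counts have no background beside them. The 95% confidence intervals show how much change these data leave room for. Of the 40 intervals against wild type 35 lay within 1 on the log2 scale in both directions, a change of less than 2-fold, and of the 40 against the heterozygote 32 did. Leaving aside dan in the adult, where counts were too few, the estimates ran from -0.55 to 0.36 against wild type and from -0.46 to 0.81 against the heterozygote. Dll at 40 h gave -0.12 ± 0.19 against wild type (interval -0.52 to 0.27), and ss at the same stage gave 0.09 ± 0.16 (interval -0.24 to 0.42). At 8 h hth gave -0.50 ± 0.30 (interval -1.13 to 0.13), where the wild type libraries lay at 1490 and 686 CPM and the mutant libraries at 845 and 695 CPM. No difference of the mutant effect between stages passed in 120 tests (6 pairs of stages, both controls, 10 genes), beside 0.349% of all such tests, with 3 of 120 at an unadjusted p under 0.05 (6.9% of all) and 0 by DESeq2.

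These counts depended on 1 library. Without 8 h wild type replicate 2, the wild type of that stage is library 1 alone, which stood apart, and 5 tests passed against wild type: hth (-0.95, adjusted p = 0.00567), exd (-0.88, adjusted p = 0.000377), Dll (-0.57, adjusted p = 0.0119), danr (0.78, adjusted p = 0.0459) and ct (-0.46, adjusted p = 0.0218), all at 8 h. In that fit 4773 of 11294 genes (42.3%) passed in the same comparison, so 5 of 10 is near the share of all genes. The fit assumes that the lone library varies like the other groups. Without both libraries that stood apart the count was 0.

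**Figure D4:**
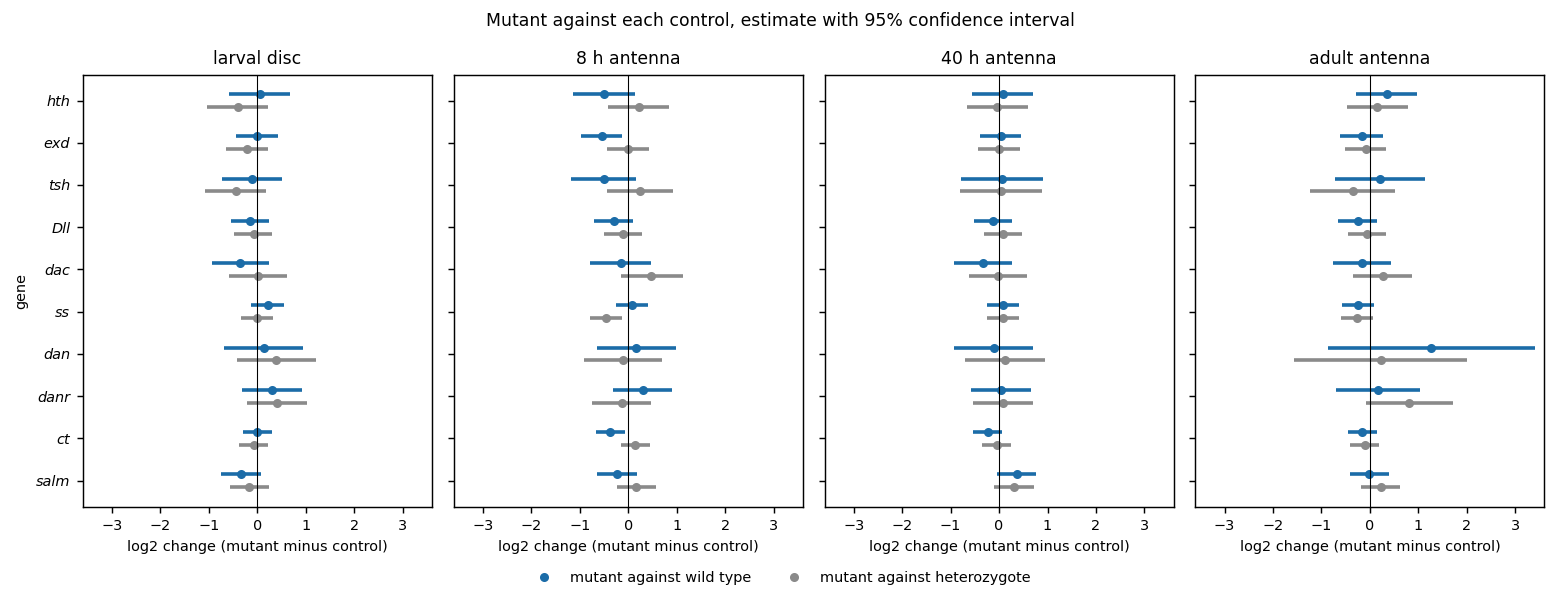
Log2 change in the mutant against wild type and against the heterozygote for each gene and stage, with the 95% confidence interval of edgeR's fit. Against wild type 35 of 40 intervals lie within 1 of 0 on the log2 scale, and the widest, dan in the adult, reaches 3.41.

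Between heterozygote and wild type, 1 of 40 tests passed, beside 2.16% of all tests over the 4 stages and 3.94% at 8 h, the stage of the call. It was ct at 8 h, with 120 and 106 CPM in wild type, 79 and 77.8 CPM in the heterozygote and 88.9 and 85.3 CPM in the mutant. Both wild type libraries lay above all libraries that carry rn[tot]. The change was -0.52 ± 0.14 on the log2 scale (adjusted p = 0.0483), and it passed in 5 of the 24 fits that left out 1 library; without both libraries that stood apart it was -0.43 (adjusted p = 0.157). ss at the same stage had 168 and 148 CPM in wild type, 245 and 213 CPM in the heterozygote and 171 and 162 CPM in the mutant, so the heterozygote alone was high. Its change against wild type, 0.53 ± 0.16, missed the threshold (adjusted p = 0.0668), and passed with DESeq2 (0.51, adjusted p = 0.0109), with counts summed over transcripts (0.78, adjusted p = 0.0357) and without both libraries (0.63, adjusted p = 0.026). In all, 6 of the 10 genes had an unadjusted p under 0.05 in heterozygote against wild type at 8 h. At that stage 25.6% of all genes did, and none of the 10 did at the other stages. Cell markers differed at 8 h as well. Fat body genes summed to 345 to 346 CPM in wild type, 87.9 to 164 in the heterozygote and 182 to 225 in the mutant. Muscle genes were also higher in wild type. Olfactory support cell genes were lower, 41.8 to 46.8 CPM against 65.2 to 162 and 62.5 to 70.9. The part of such cells in the 8 h calls against wild type, here and below, was not tested.

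The ratios of hth transcript counts were compared between genotypes, and no difference passed after adjustment over all genes. With 2 libraries per group that adjustment cannot decide whether they differ, as set out below. hth lies on the minus strand of 3R:10507561-10639568 in the Ensembl annotation of the BDGP6 assembly and is known to be spliced into long forms with the homeodomain and short forms without it. Of the 5 transcripts in the table, hth-RC (487 residues) and hth-RA (472 residues) have 14 exons each, and hth-RI, hth-RF and hth-RE have 266 residues each. hth-RI, the transcript used for the gene's level, ends at 10581406 and hth-RC runs on to 10507561. Other annotated entries overlap hth, 3 on its strand and 1 on the other. How counting treated them, or reads shared between transcripts, is not given, so ratios of counts may differ from transcript proportions. The count of hth-RC divided by that of hth-RI was 0.661 and 0.677 in the larval wild type, 0.55 and 0.636 in the heterozygote and 0.552 and 0.532 in the mutant. At 8 h it was 0.573 and 0.585 in wild type, 0.623 and 0.55 in the heterozygote and 0.503 in both mutant libraries. At 40 h it was 0.671 and 0.693 in wild type, 0.596 and 0.605 in the heterozygote and 0.533 and 0.557 in the mutant, and in the adult 0.811 and 0.834, 0.77 and 0.804, and 0.692 and 0.706. The ratio in the mutant lay below that in wild type at all 4 stages without overlap. It lay below the heterozygote at 3 of 4, since a larval heterozygote library, the one that stood apart, lay within the mutant range. The level of hth-RC itself was 559 and 526 CPM in the larval mutant against 672 and 623 CPM in wild type, and it was also lower at 40 h. In the adult hth-RC overlapped, with 423 and 361 CPM in the mutant against 355 and 367 CPM. There hth-RI was higher in the mutant, with 611 and 511 CPM against 438 and 440 CPM. At 8 h hth-RC overlapped too.

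The mean ratio was 0.572 in the mutant, 0.642 in the heterozygote and 0.688 in wild type. The difference between mutant and wild type was -0.116 (p = 0.00154, two-sided exact permutation of genotype within stage, the smallest p that its 1296 arrangements can give), and -0.117 without 8 h wild type library 1. Adjusted over the 4929 genes that had at least 2 transcripts of sufficient count it missed the threshold (adjusted p = 0.0845). Every other gene missed it too. In all, 90 genes shared the smallest p, so 0.0845 was the lowest adjusted p of any gene, set by their number. Against the heterozygote 21 genes reached the smallest p, and none passed. With so few arrangements the adjustment cannot decide whether the ratio differs. Mutant and heterozygote differed by -0.0694 (exact permutation p = 0.00309, adjusted p = 0.447), and heterozygote and wild type by -0.0463 (exact permutation p = 0.0247, adjusted p = 0.417). The mean ratio of hth-RA to hth-RI was 0.544 in the mutant and 0.648 in wild type. Among the short forms, hth-RF to hth-RI averaged 0.336 and 0.348, and hth-RE to hth-RI 0.329 and 0.335. Among the 4929 genes, 90 (1.83%) had mutant and wild type apart in 1 direction at all 4 stages, 13 of 1070 on arm 3R (1.21%) and 77 of 3859 on other arms (2%), and 2 (0.0406%) were apart from both controls. Of the 7 selector genes in that set hth alone was among the 90, and its ratio was singled out after its values were seen. hth lies 3197.9 kb from rn on the same arm, so the rn[tot] allele and other sequence of the chromosome that carries it cannot be told apart. Over development the ratio changed most at the end. It averaged 0.609 at 40 h and 0.77 in the adult (exact permutation over 12 libraries p = 0.00433, adjusted over 3 steps 0.013). The permutation treated libraries of the 3 genotypes at a stage as alike. No adjustment over all genes was made, and the share of genes whose ratio moved at this step is not given.

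**Figure D5:**
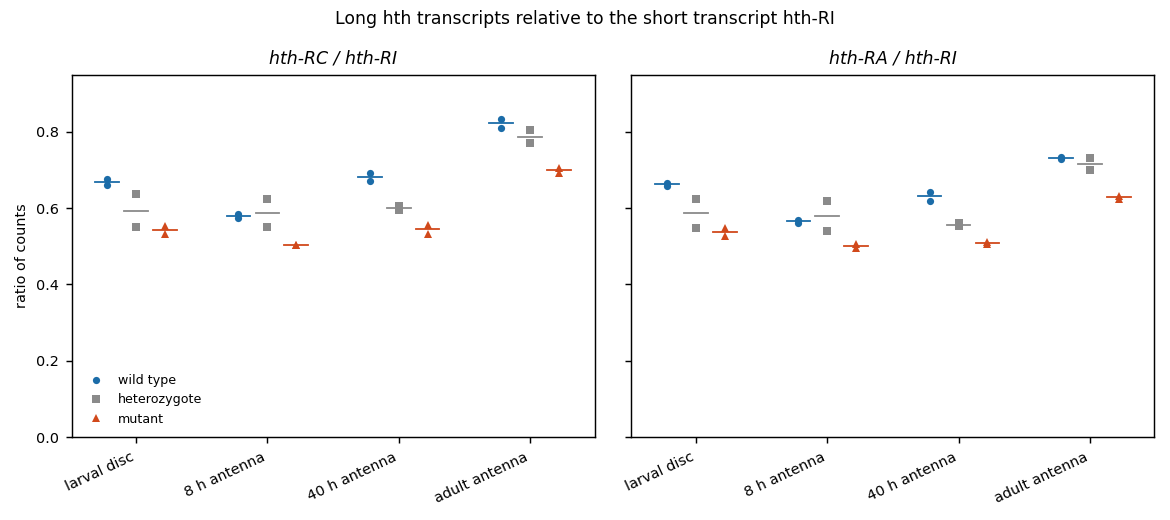
Counts of the long transcripts hth-RC and hth-RA divided by those of the short transcript hth-RI in each library, by stage and genotype, with bars at the mean of 2 libraries and axes that start at 0. At all 4 stages the ratios of both mutant libraries lie below those of both wild type libraries, for example 0.692 and 0.706 against 0.811 and 0.834 for hth-RC in the adult. The level of hth-RC itself overlapped between mutant and wild type in the adult.

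Ratios of transcript counts also marked the libraries that stood apart. Dll-RB, which ends before Dll-RA, had 0.378 times the count of Dll-RA in larval heterozygote library 1 and 0.352 times in 8 h wild type library 1, against stage medians of 0.59 and 0.638. For ss-RC, which also ends before ss-RA, the values were 0.57 and 0.402, against medians of 0.745 and 0.757. At 40 h and in the adult the ranges were 0.605 to 0.646 for Dll and 0.739 to 0.786 for ss. In these libraries the transcript of Dll and of ss that runs further 3′ thus took a larger share of the counts. The part of this share in the gene levels given above was not tested.

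Genes that work with the selectors gave a few calls against wild type. Of 18 distal and joint factors, 2 were lower in the mutant larva (1.54% of all genes passed there). They were bab1, a BTB-domain factor of the distal segments (12.9 to 5.92 CPM, log2 -1.13 ± 0.22, adjusted p = 0.0103), and dysf, a factor of the tarsal joints (15.3 to 4.92 CPM, log2 -1.64 ± 0.36, adjusted p = 0.0298). At 8 h 3 were lower and 1 higher (3.36% of all). bab1 fell 3.34-fold (log2 -1.74 ± 0.22, adjusted p = 0.000253), its neighbour bab2 1.99-fold (adjusted p = 0.0135) and rn itself 2.21-fold (adjusted p = 0.0269), and B-H2, a homeobox gene of distal segments, rose 1.99-fold (log2 0.99 ± 0.24, adjusted p = 0.0305). bab1 was also lower in the 8 h heterozygote than in wild type (10.1 against 20.8 CPM, adjusted p = 0.0123). Without both libraries that stood apart, bab1 passed against wild type in the larva (log2 -1.12, adjusted p = 0.00095) and at 8 h (-1.47, adjusted p = 0.000656), as did dysf in the larva (-1.64, adjusted p = 0.00234). The other calls of this list were lost: bab2 gave -0.54 (adjusted p = 0.0931), rn -0.76 (adjusted p = 0.122) and B-H2 1.08 (adjusted p = 0.0596) in the mutant, and bab1 gave -0.77 (adjusted p = 0.0539) in the heterozygote. Of 14 tested genes of the disc's signals, aos, an inhibitor of the EGF receptor, was lower at 8 h (55.4 to 30.7 CPM, adjusted p = 0.0269; log2 -0.56 and adjusted p = 0.157 without both libraries), and ptc, the Hedgehog receptor, and en, a homeobox gene of posterior cells, were lower in the adult mutant (adjusted p = 0.023 and 0.021, beside 3.08% of all genes). None of the 16 partners and relatives of the selectors and none of the 4 tested homeotic genes passed against wild type, and none of these 4 lists had a call against the heterozygote. Between larva and 8 h, 10 of the 16 partners fell and 3 rose, and those that fell included caup (22.1-fold), ara (15.3-fold), tio (15.1-fold) and mirr (4.67-fold).

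By the root-mean-square difference over the 12 group means of centred log2 CPM, among 8778 genes at 5 CPM or more, the genes most like each selector were as follows. For Dll they were Tango10 (0.127) and Asx (0.137), for hth TBC1d7 (0.119) and sl (0.139), for exd Etl1 (0.0813) and hrg (0.0823), and for dac Fim (0.174) and CG13766 (0.175). For ss they were P5CDh1 (0.178) and Tsp42Ea (0.206), for ct CG12213 (0.0943) and LRR (0.155), and for salm CG7326 (0.168) and CG5359 (0.189). The genes with the widest changes had no close match: dan's nearest was CG42747 (0.389), then esg (0.526), danr's was conv (0.386), then Nplp1 (0.412), and tsh's were Nepl3 (0.483) and the homeotic gene Scr (0.492). dan and danr differed from each other by 0.8.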

How the data were processed

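Per the labels' protocols, polyA RNA (RNeasy) went into a stranded Illumina mRNA preparation. The submitters' processing notes name BWA 0.7.12, CASAVA 1.8 and DESeq2; genome build, counting program, and its handling of strand and shared reads: not given in the sources used here. The authors deposited raw counts for 29872 transcripts, and a normalized table whose signal equals those counts times 1 constant per library, so the counts were used throughout. FlyBase transcript IDs were matched to the Ensembl annotation of BDGP6 (29393 transcripts, 13409 genes, 98.69% of counts). Transcripts of a gene share reads, so the transcript with the largest total stood for its gene, 45.5% of the summed counts; 59.3% of nonzero counts were even, so counts may hold both reads of a pair. That choice was made with the table in view.

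Genes were tested with edgeR 4.0.16 (R 4.3.3; TMM, filterByExpr with a minimum count of 10, quasi-likelihood F test, 12 groups over 24 libraries, Benjamini-Hochberg at 0.05, two-sided; limma 3.58.1 underlies it). The common dispersion was 0.0521, a coefficient of variation of 22.8%. SE is the absolute log2 change divided by the square root of F, and intervals use its degrees of freedom (12 residual, 4.13 prior). CPM uses TMM library sizes. Alternatives were DESeq2's size factors in edgeR, DESeq2 1.42.0, no filter, sums over transcripts, fits of the compared stages alone, a replicate block and leaving out each library; leaving out both libraries that stood apart was added after seeing the data. The fit was tested on simulated data. The 10 genes and all lists were chosen with earlier results of these data known. The text names all 10 genes, rn, up to 4 called genes of each list per comparison and the 2 genes most like each selector; tgo, salr and lobo are given beside ss, salm and dan, and the ratios within hth, Dll and ss were chosen after their values were seen. Ratios needed a mean count of 50 for both transcripts and no 0 in the larger; dan could not be fitted. Dl and Rh6 were not matched.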

Additional observations from a re-analysis of the deposited data

How the results depend on the processing

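Each library was left out in turn and 7 other settings were tried. Where no share over all genes stands beside a count below, that setting's share is not given here. Such counts show only how the main counts move. Of the 25 stage changes called over the 3 genotypes, 21 passed in every setting; of the 17 in wild type, 9 did. The exceptions over the 3 genotypes were the 8 h to 40 h fall of exd, the last rise of Dll and both falls of dac. No called change reversed its sign. The number of tests passed in the mutant against wild type was 0 in the main fit, 1 with DESeq2 and 0 to 5 with 1 library left out. Between heterozygote and wild type it was 1, against 3 with DESeq2 (ct, ss and exd at 8 h), 0 without a filter on low counts, 0 in fits of the stage alone and 0 to 7 with 1 library left out. For the mutant effect between stages it was 0, and 0 to 7 with 1 library left out; the highest counts came without 8 h wild type replicate 2, where 42.3% and 42.4% of all genes passed against wild type at 8 h in mutant and heterozygote, and 8.09% of all tests of the mutant effect between stages. Libraries with the same replicate number did not deviate together (correlations -0.139 to 0.089), so the numbers do not pair the samples. With the replicate block the count between heterozygote and wild type was 0 and the stage changes numbered 22 over the 3 genotypes and 14 in wild type. The cause of these changes was not tested. With 2 libraries per group the 95% confidence interval lay within a 2-fold change for 35 of the 40 tests against wild type, so smaller changes may not have been detectable.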
